A study of Caenorhabditis elegans with 11 samples.

Results

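Mitochondrial ribosomal proteins were followed through the 70 probe sets that the array annotation assigns to a single gene with a symbol starting with mrpl or mrps. They belong to 69 genes, because mrps-16 has 2 probe sets, and they were taken from 26761 probe sets with a gene symbol. By symbol, 40 probe sets belong to the large ribosomal subunit (mrpl) and 30 to the small subunit (mrps). The symbols follow the human numbering, in which low numbers mark proteins with a bacterial counterpart. Accordingly, 42 probe sets were classed as carrying the number of a bacterial homologue (mrpl up to 36, mrps up to 21), and 28 carry a higher number. Most higher numbers mark proteins specific to mitochondria. The classes rest on the number alone, and homology was not checked for each protein. One further probe set, shared by mrps-18A and the neighbouring gene iglr-2, was left out.

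Mitochondria have their own ribosome, which translates the few proteins encoded in the mitochondrial genome, core subunits of the respiratory chain and of the ATP synthase. All of its proteins are encoded in the nucleus, made in the cytosol and imported, and they join with the mitochondrial ribosomal RNAs to form the large subunit, where peptide bonds are made, and the small subunit, where the mRNA is read. In C. elegans, knockdown of some of these genes, mrps-5 among them, is known to induce the mitochondrial unfolded protein response and to lengthen life, and mitochondrial DNA multiplies as the germ line grows.

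The animals were of strain JK1466, labelled gld-1(-), in which loss of the tumour suppressor gld-1 lets the germ line proliferate into a tumour. The methods describe the strain as gld-1(q485) balanced by dpy-5(e61) unc-13(e51), and state that all animals, controls included, were fed bacteria for RNA interference against gld-1. Larvae received 25 µM of a betaxanthin, a yellow plant pigment, for 48 h, starting 16 to 18 h after hatching, and whole L4 larvae and young adults were collected. The compounds were tryptophan methyl ester-betaxanthin (3 arrays), tryptophan benzyl ester-betaxanthin (3 arrays) and the lead molecule tryptophan-betaxanthin (3 arrays), which lacks the ester group of the derivatives, and the control received water (2 arrays). Arrays of the compounds came from independent trials 1, 2 and 3, and those of the control from trials 1 and 2. The third trial therefore has no control here. The study asked which genes these compounds alter in a germline tumour model.

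Values are log2 signals after robust multi-array averaging (RMA), so that a difference of 1 is a 2-fold change. Pairs of arrays correlated between 0.96 and 0.997 over all probe sets. The signal of gld-1 was 6.74, 7.33 and 5.91 after the methyl ester, 6.44, 5.50 and 6.27 after the benzyl ester, 7.12, 7.45 and 7.14 after tryptophan-betaxanthin, and 7.32 and 7.43 in water. Differences between groups were tested with limma, which fits all probe sets together, and a probe set was called when its p-value, adjusted over all 26761 probe sets, was under 0.05. With 3 arrays against 2 or 3, an exact permutation test of a single gene cannot go below p = 0.1.

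All 70 probe sets gave a mean signal above the median of all tested probe sets, which was 2.28. The lowest means were those of mrps-31 (2.59), mrpl-45 (2.75) and mrpl-54 (2.97), close to that median, and how far they stand above background was not measured. The highest were those of mrps-18A (9.07), mrpl-51 (8.64) and mrpl-23 (8.56). Probe sets differ in how well they bind their target, so these signals do not rank the genes by abundance. The 2 probe sets of mrps-16 (means of 4.28 and 7.74) illustrate this, since they report the same gene. In the RefSeq annotation of the WBcel235 assembly the members are spread over 5 chromosomes, with 15 on I, 12 on II, 22 on III, 10 on IV and 10 on V. The members mrps-2 and mrpl-4 are direct neighbours on V, and mrpl-1 and mrps-24 on IV are separated by 1 gene.

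No mitochondrial ribosomal protein was called against water for any of the 3 compounds. With the methyl ester 0 of 70 probe sets passed, where 0.258% of all tested probe sets did. With the benzyl ester 0 of 70 passed (0.564% of all), and with tryptophan-betaxanthin 0 of 70 (0.00374% of all). Without adjustment, a p under 0.05 was reached by 4 members with the methyl ester (16.4% of all), 5 with the benzyl ester (15.3% of all) and 1 with tryptophan-betaxanthin (6.04% of all). A joint test of any difference among the 4 groups called 0 of 70 (1.34% of all), with 5 at an unadjusted p under 0.05 (19.1% of all).

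The median log2 difference of the members from water was -0.18 with the methyl ester, -0.12 with the benzyl ester and -0.02 with tryptophan-betaxanthin. Differences below 0 were found for 57 of 70 with the methyl ester (48% of all probe sets), 48 with the benzyl ester (48.7% of all) and 41 with tryptophan-betaxanthin (47.2% of all). The subunits had like values. With the methyl ester the median was -0.18 for the large and -0.16 for the small subunit, with the benzyl ester -0.10 and -0.12, and with tryptophan-betaxanthin -0.01 and -0.07. Without the 3 arrays of the third trial, the medians were -0.01 with the methyl ester, 0.06 with the benzyl ester and 0.03 with tryptophan-betaxanthin.

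**Figure D1:**
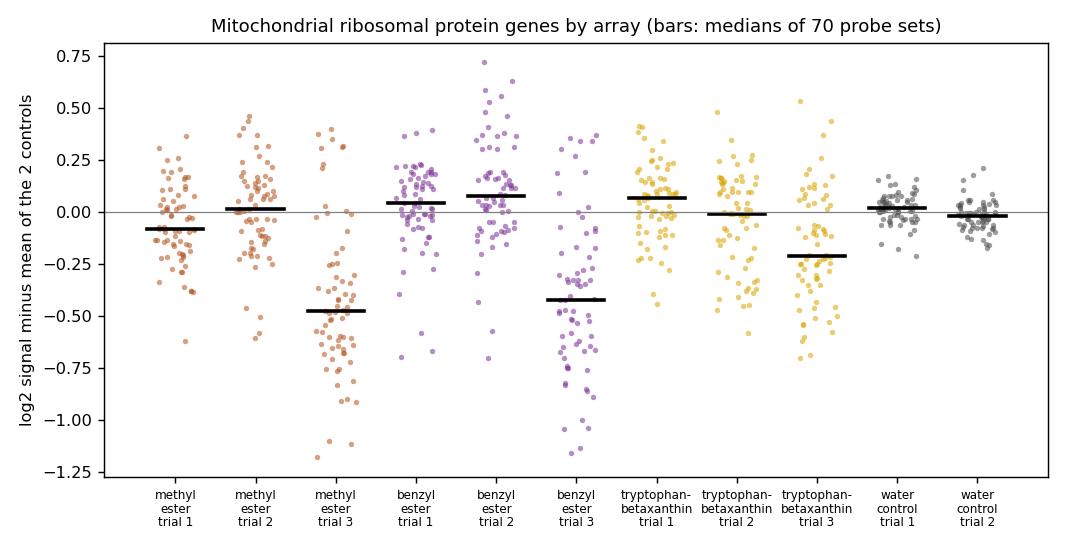
Log2 signal of each of the 70 probe sets minus its mean in the 2 water controls, by array, with a bar at each array's median. The medians are -0.48 for the methyl ester, -0.42 for the benzyl ester and -0.21 for tryptophan-betaxanthin in trial 3, and lie between -0.08 and 0.08 in all other arrays.

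Among the large subunit proteins, mrpl-41 was higher in every treated array than in water. It encodes a protein specific to mitochondria whose human homologue was also described as a partner of the cell death regulator BCL2. Its signals were 7.13, 7.17 and 7.14 after the methyl ester, 6.97, 7.35 and 7.07 after the benzyl ester, 7.18, 7.11 and 7.30 after tryptophan-betaxanthin, and 6.80 and 6.73 in water. The treated arrays did not overlap with the control. The log2 differences from water were 0.38 with the methyl ester, 0.36 with the benzyl ester and 0.43 with tryptophan-betaxanthin, each with an SE of 0.12, and none was called (adjusted p of 0.202, 0.205 and 0.531 from limma). The 3 comparisons share the 2 control arrays.

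The gene mrpl-37, also specific to mitochondria, had signals of 5.22, 5.24 and 5.20 after the methyl ester, 5.09, 5.69 and 5.31 after the benzyl ester, 4.88, 5.14 and 5.10 after tryptophan-betaxanthin, and 4.91 and 5.03 in water. Both esters lay above water in each array, and tryptophan-betaxanthin overlapped with it. Its difference from water was 0.39 (SE 0.16) with the benzyl ester and 0.25 (SE 0.16) with the methyl ester, and neither was called (adjusted p of 0.284 and 0.464 from limma). The small subunit gene mrps-6 differed from water by 0.30 (SE 0.14) with the benzyl ester and by 0.26 (SE 0.14) with the methyl ester, again without a call.

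The lowest differences from water were those of mrps-31, mrpl-1 and mrpl-45 with the methyl ester and of mrps-31, mrpl-45 and mrpl-46 with the benzyl ester. The gene mrpl-1 encodes the protein of the mobile stalk through which spent tRNAs leave the ribosome. Its signals were 5.32, 5.15 and 5.0 after the methyl ester, 5.26, 5.36 and 5.13 after the benzyl ester, 5.56, 5.44 and 5.34 after tryptophan-betaxanthin, and 5.71 and 5.60 in water. All 3 compounds lay below water in each array. The difference from water was -0.50 (SE 0.12) with the methyl ester, -0.41 (SE 0.12) with the benzyl ester and -0.21 (SE 0.12) with tryptophan-betaxanthin, and none was called (adjusted p of 0.155, 0.178 and 0.862 from limma).

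The gene mrps-31, a small subunit protein specific to mitochondria, had signals of 2.45, 2.49 and 1.89 after the methyl ester, 2.40, 2.37 and 2.25 after the benzyl ester, 2.63, 2.73 and 3.19 after tryptophan-betaxanthin, and 2.86 and 3.28 in water. Every ester array lay below every other array. The difference from water was -0.79 (SE 0.22) with the methyl ester and -0.73 (SE 0.22) with the benzyl ester, both with an adjusted p of 0.181 from limma. Without the third trial the benzyl ester value was -0.69 and was called (adjusted p = 0.030 from limma). In that setting 1455 of 26761 probe sets were called, against 151 with all arrays. Several of these signals lie near or below the median of all probe sets.

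**Figure D2:**
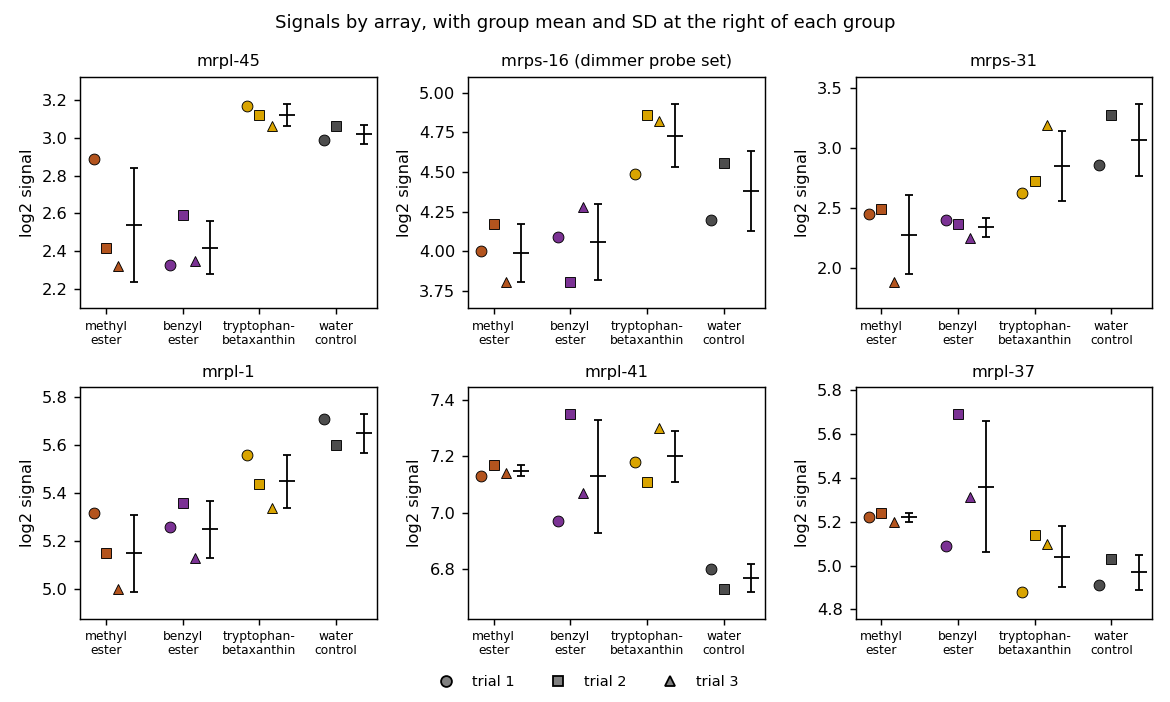
Log2 signals of 6 probe sets by array, with the group mean and SD beside each group (3 arrays per compound, 2 for water) and the trial shown by the symbol. In mrpl-45 both esters lie below tryptophan-betaxanthin and water in every array, and in mrpl-41 the 3 compounds lie above water in every array.

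With tryptophan-betaxanthin the highest differences from water were those of mrpl-41, mrps-16 in its dimmer probe set (0.34, SE 0.18) and mrps-11 (0.25, SE 0.15). The lowest were those of mrps-33 (-0.49, SE 0.32), mrpl-24 (-0.45, SE 0.39) and mrpl-51 (-0.42, SE 0.31). The 95% intervals of all but mrpl-41 (0.17 to 0.70) include 0. With the benzyl ester mrpl-46, a protein of the central protuberance of the large subunit in humans, was among the lowest (-0.59, SE 0.27, adjusted p = 0.341 from limma). Over all members, signals did not overlap with water for 2 higher and 20 lower probe sets with the methyl ester (20.4% and 20.8% of all), 7 higher and 7 lower with the benzyl ester (19% and 17.4% of all), and 10 higher and 13 lower with tryptophan-betaxanthin (16.2% and 17.2% of all). All members are above the median signal. Among all such probe sets the shares were 26.1% and 31% (methyl ester), 24.3% and 23.8% (benzyl ester), and 18.4% and 25.4% (tryptophan-betaxanthin).

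The lifespan gene mrps-5 was not called in any comparison. Its signals were 6.41, 6.51 and 6.75 after the methyl ester, 6.48, 6.47 and 6.79 after the benzyl ester, 6.64, 6.48 and 6.64 after tryptophan-betaxanthin, and 6.51 and 6.36 in water, and the groups overlapped. The difference from water was 0.12 with the methyl ester (95% interval -0.19 to 0.43), 0.14 with the benzyl ester (-0.17 to 0.45) and 0.15 with tryptophan-betaxanthin (-0.16 to 0.46), with an SE of 0.14 for each.

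The compounds were also compared with each other, since all were given at the same dose for the same time. The only member called in any of these 3 comparisons was mrpl-45, lower with the benzyl ester than with tryptophan-betaxanthin, 1 of 70 where 3.09% of all probe sets were called and 0.998% were called lower. Without adjustment 5 members had a p under 0.05 (20.1% of all). In humans its homologue holds the large subunit to the inner membrane near the exit of the peptide tunnel, where nascent proteins are inserted. Its signals were 2.33, 2.59 and 2.35 with the benzyl ester and 2.89, 2.42 and 2.32 with the methyl ester, against 3.17, 3.12 and 3.06 with tryptophan-betaxanthin and 2.99 and 3.06 in water. Each ester array lay below each of the other arrays. The log2 difference from tryptophan-betaxanthin was -0.69 (SE 0.14, adjusted p = 0.0361 from limma) with the benzyl ester and -0.57 (SE 0.14, adjusted p = 0.0733 from limma) with the methyl ester. Against water it was -0.60 (adjusted p = 0.147) with the benzyl ester and -0.48 (adjusted p = 0.219) with the methyl ester. The call was lost when any array of the benzyl ester, tryptophan-betaxanthin or water was left out (adjusted p between 0.063 and 0.14), and the signals are low.

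The gene mrps-16, a small subunit protein with a bacterial homologue, came close to the threshold in its dimmer probe set. There its signals were 4.0, 4.17 and 3.81 with the methyl ester and 4.09, 3.81 and 4.28 with the benzyl ester, against 4.49, 4.86 and 4.82 with tryptophan-betaxanthin and 4.20 and 4.56 in water. Both esters lay below tryptophan-betaxanthin in every array. The methyl ester arrays also lay below both water arrays, while the benzyl ester overlapped with water. Relative to tryptophan-betaxanthin the difference was -0.73 (SE 0.16, adjusted p = 0.0611 from limma) with the methyl ester and -0.66 (SE 0.16, adjusted p = 0.062 from limma) with the benzyl ester. The brighter probe set of the same gene gave -0.25 (SE 0.12) with the methyl ester and -0.30 (SE 0.12) with the benzyl ester, in the same direction and of smaller size.

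Between the methyl ester and tryptophan-betaxanthin 0 of 70 members were called (1.37% of all), and the 7 with an unadjusted p under 0.05 (20.2% of all) were all lower with the methyl ester (9.91% of all). They were mrps-15, mrps-16 (dimmer probe set), mrps-18C, mrps-31, mrpl-1, mrpl-39 and mrpl-45. Arrays of these groups that share a trial number deviated together (correlations of 0.214, 0.291 and 0.453). Arrays of trials 1 and 2 with unlike numbers did so as well (0.214 and 0.151). With the trial as a block 6 of 70 members (8.57%) were called, all lower with the methyl ester. Of all probe sets 11.1% were called in either direction with the block, and the share called lower alone is not given here. The 6 members were mrps-15 (-0.43), mrps-16 in its dimmer probe set (-0.73), mrps-18C (-0.43), mrpl-28 (-0.42), mrpl-39 (-0.52) and mrpl-45 (-0.57), with adjusted p between 0.023 and 0.040 from limma. The member with the highest difference was mrps-33, at 0.43 (SE 0.29) with the methyl ester and at 0.49 (SE 0.29) with the benzyl ester over tryptophan-betaxanthin, neither called.

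The methyl and benzyl esters differ in the alcohol of the ester, and between them 0 of 70 members were called (0.149% of all). One member, mrps-25, had an unadjusted p under 0.05 (4.33% of all), at -0.35 (95% interval -0.69 to -0.01). The extremes were mrpl-46 at 0.38 (95% interval -0.17 to 0.93) and mrpl-28 at -0.41 (-0.91 to 0.10). The median over the members was -0.06. Such intervals leave room for differences of this size, so the esters cannot be said to act alike on these genes.

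The largest median differences of the members were those between the third and the earlier arrays of the methyl and benzyl ester. In the third trial the methyl ester array was the lowest of its 3 arrays for 60 of 70 members (38.3% of all probe sets), the benzyl ester array for 57 (36.9% of all) and the tryptophan-betaxanthin array for 51 (38.3% of all). For 53 members the third array was the lowest with both esters (21.9% of all), and for 2 it was the highest with both (23.5% of all). Among probe sets above the median signal, the third array was lowest for 43.3% (methyl ester), 40.1% (benzyl ester) and 44.9% (tryptophan-betaxanthin). With both esters it was lowest for 30.3% of these and highest for 30.7%. The median difference of the third array from the mean of the first and second was -0.41 with the methyl ester, -0.49 with the benzyl ester and -0.17 with tryptophan-betaxanthin. The trial number is the only difference between these arrays that the labels give.

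This comparison was added after the values were seen. With a term for the third trial beside the 4 groups, 40 of 70 members were called (18.6% of all probe sets). Of these, 39 were lower in the third trial than in the first and second (10.2% of all) and 1, mrps-11, was higher (8.4% of all). Among the brighter probe sets, those above the median signal, 19.5% were called lower. The median over the members was -0.37, against 0.01 over all probe sets, and 63 of 70 differences were below 0 (48.2% of all). By symbol, both subunits took part, with 23 of 40 large and 16 of 30 small subunit probe sets lower. So did both number classes, with 26 of 42 carrying a bacterial number and 13 of 28 a higher number. Without the methyl ester array of the third trial 10 members were called (5.77% of all) and without the benzyl ester array of the third trial 9 (5.01% of all). Within the 6 ester arrays alone 36 were called (17% of all), at a median of -0.46. Within the arrays of tryptophan-betaxanthin and water alone limma called 0 (0.344% of all), with 15 at an unadjusted p under 0.05 (16.5% of all) and a median of -0.17.

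**Figure D3:**
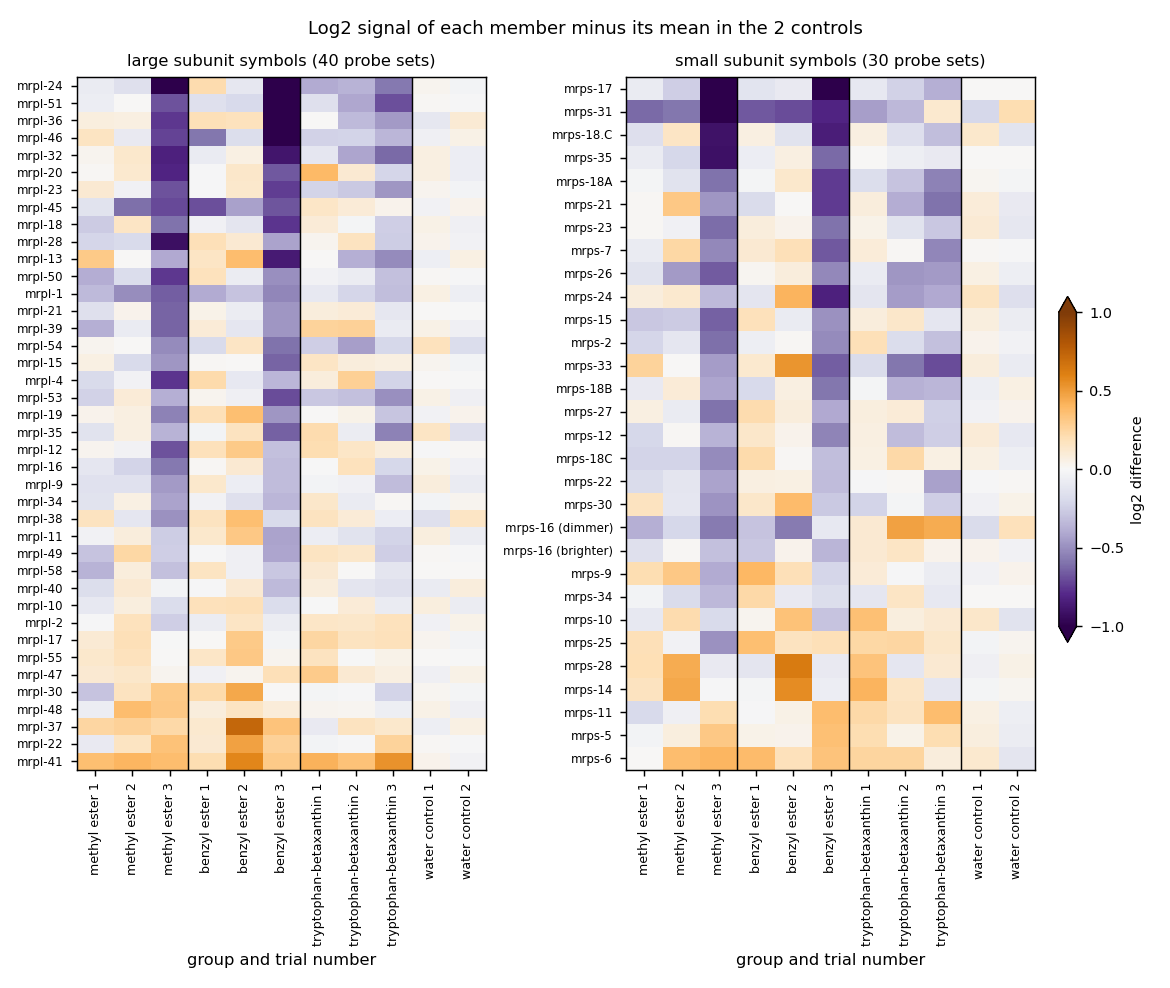
Log2 signal of each probe set minus its mean in the 2 water controls, with arrays in columns and colours saturated at -1 and 1. Rows are ordered within each subunit by their mean over the methyl and benzyl ester arrays of trial 3. The columns of the methyl and benzyl ester in trial 3 are mostly purple (lower), while rows such as mrpl-41 and mrps-6 are orange (higher) in most treated arrays.

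The lowest third-trial differences were those of the large subunit genes mrpl-24, mrpl-36 and mrpl-32, all with bacterial homologues. The product of mrpl-24 sits near the exit of the peptide tunnel. Its signal was 5.73 after the methyl ester and 5.71 after the benzyl ester in the third trial, against 6.76 and 6.69 (methyl ester) and 7.06 and 6.74 (benzyl ester) in the first and second. With tryptophan-betaxanthin it was 6.27 in the third trial, against 6.45 and 6.48, and in water it was 6.87 and 6.82. Both ester arrays of the third trial lay below all others, and the fitted difference was -0.79 (SE 0.16, adjusted p = 0.00869 from limma).

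For mrpl-36 the third trial gave 5.0 after the methyl ester and 4.71 after the benzyl ester, against 5.83 and 5.82 (methyl ester) and 5.95 and 5.93 (benzyl ester) in the first and second, and water gave 5.65 and 5.86. For mrpl-32, whose human homologue is cut by the mitochondrial m-AAA protease before it is assembled, the third trial gave 6.06 after the methyl ester and 6.0 after the benzyl ester, against 6.92 and 7.02 (methyl ester) and 6.81 and 6.95 (benzyl ester), and water gave 6.96 and 6.82. In both genes the ester arrays of the third trial lay below all others. The fitted differences were -0.78 (SE 0.15, adjusted p = 0.0076 from limma) for mrpl-36 and -0.71 (SE 0.12, adjusted p = 0.00481 from limma) for mrpl-32.

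Other functional neighbourhoods of the large subunit held members of both kinds. In the stalk that receives the elongation factors, mrpl-12 (-0.44) and mrpl-11 (-0.35) were lower in the third trial and mrpl-10 (-0.22, adjusted p = 0.094 from limma) was not called. Around the tunnel exit, mrpl-23 (-0.58) was lower as mrpl-24 was, while mrpl-22 stood at 0.19 (adjusted p = 0.274 from limma) and mrpl-45 at -0.18 (adjusted p = 0.347). In the central protuberance, mrpl-18 (-0.50), mrpl-38 (-0.39) and mrpl-46 (-0.52) were lower, and mrpl-40 (-0.17) and mrpl-48 (0.02) were not called. Of the genes described above against water, mrpl-41 (0.02), mrpl-37 (0.00), mrpl-1 (-0.19) and mrps-31 (-0.07) were not called between trials, whereas mrpl-51 (-0.68) and mrps-33 (-0.63) were lower in the third trial, as mrpl-46 and mrpl-24 were.

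In the small subunit, mrps-7, whose bacterial homologue starts the assembly of the head, gave 4.89 with the methyl ester, 4.74 with the benzyl ester and 4.88 with tryptophan-betaxanthin in the third trial. In the first and second trials it gave 5.33 and 5.65 after the methyl ester, 5.52 and 5.60 after the benzyl ester and 5.50 and 5.42 after tryptophan-betaxanthin, and water gave 5.42 and 5.40. All 3 arrays of the third trial lay below all others, with a fitted difference of -0.66 (SE 0.09, adjusted p = 0.00312 from limma), the lowest adjusted p of the members. The decoding protein gene mrps-12 (-0.33, adjusted p = 0.0873 from limma) was not called. The genes mrps-18A and mrps-30, whose human homologues sit in the large subunit despite their names, were both lower (-0.55 and -0.39).

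The single member that was higher was mrps-11, the platform protein of the small subunit. In the third trial it gave 8.65 with the methyl ester, 8.81 with the benzyl ester and 8.81 with tryptophan-betaxanthin, against 8.24 and 8.39 (methyl ester), 8.43 and 8.49 (benzyl ester) and 8.67 and 8.61 (tryptophan-betaxanthin) in the first and second, and 8.50 and 8.38 in water. The third array was the highest of each compound, though the third methyl ester array lay within the range of the earlier tryptophan-betaxanthin arrays. The fitted difference was 0.29 (SE 0.08, adjusted p = 0.0284 from limma). The gene mrps-5 stood at 0.23 (SE 0.08, adjusted p = 0.0837 from limma), and was also highest in the third trial with both esters.

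**Figure D4:**
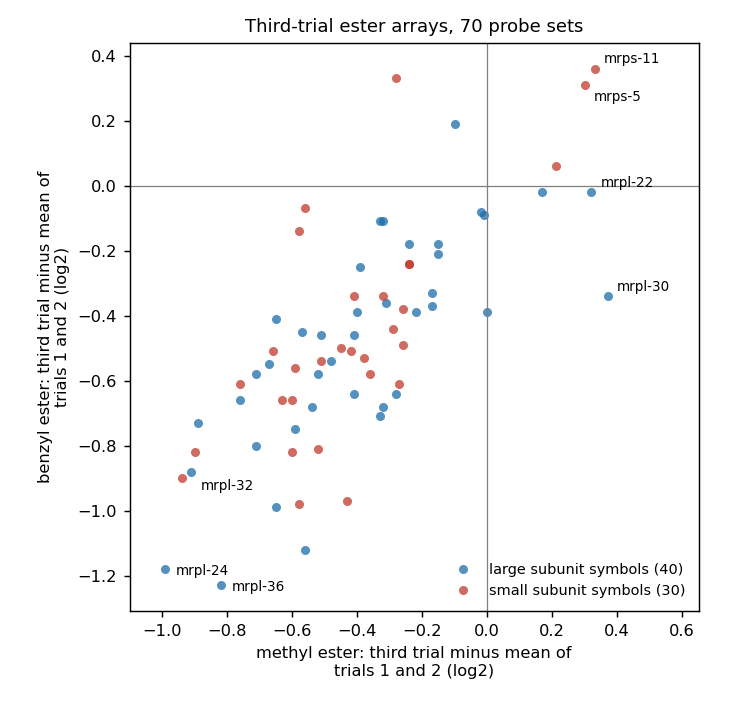
Log2 difference of the third-trial array from the mean of trials 1 and 2 for each of the 70 probe sets, with the methyl ester on the horizontal and the benzyl ester on the vertical axis and subunits by colour. Most points lie below 0 on both axes, with mrpl-24 and mrpl-36 at the lower left and mrps-11 and mrps-5 at the upper right.

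Other genes of mitochondrial gene expression were lower in the third trial in part, where 10.2% of all probe sets and 19.5% of the brighter ones were. Of 11 translation factors and nucleoid proteins 5 were lower (median -0.33), among them tsfm-1 (-0.64) and tufm-2 (-0.40), elongation factors, and hmg-5 (-0.70), which packages mitochondrial DNA. Of 9 mitochondrial aminoacyl-tRNA synthetases 4 were lower (median -0.27), led by pars-2 (-0.56). Of 12 proteins of mitochondrial import 8 were lower (median -0.37), among them the receptors tomm-20 (-0.40), tomm-22 (-0.39) and tomm-70 (-0.43). None of these lists had a member that was called higher.

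For the respiratory chain and the cytosolic ribosome the median differences were above 0, with calls in both directions. Of all probe sets 8.4% were called higher and 10.2% lower, and of the brighter ones 15.3% and 19.5%. Of 34 nuclear respiratory chain subunits 4 were called higher in the third trial, ucr-2.1 (0.78), atp-2 (0.57), sdha-1 (0.44) and isp-1 (0.35), and 2 were called lower, cyc-2.2 (-0.64) and sdha-2 (-0.62), at a median of 0.09. Of 75 cytosolic ribosomal proteins 2 were higher, rpl-23A.1 (0.64) and rpl-7A (0.54), and 2 lower, rpl-42 (-0.81) and rpl-29 (-0.31), at a median of 0.12. Among 14 genes of the mitochondrial unfolded protein response and its proteases, 3 were lower, ppgn-1 (-0.55), dnj-10 (-0.47) and hsp-60 (-0.46), at a median of -0.13. The differences between these lists and the mitochondrial ribosomal proteins were not tested. Genes encoded in the mitochondrial genome, the products of this ribosome, were not matched to any probe set.

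Between the compounds and water limma called 0 of the 155 genes of these 6 lists, and an unadjusted p under 0.05 was reached by 10 with the methyl ester (16.4% of all probe sets), 10 with the benzyl ester (15.3% of all) and 0 with tryptophan-betaxanthin (6.04% of all). Between compounds 1 of the 155 genes was called, in a comparison where 3.09% of all probe sets were called. This was spg-7, the paraplegin subunit of the m-AAA protease, at -0.58 (SE 0.12, adjusted p = 0.0416 from limma) with the benzyl ester relative to tryptophan-betaxanthin. Its signals were 3.37, 3.44 and 3.40 with the benzyl ester, against 4.09, 4.0 and 3.86 with tryptophan-betaxanthin. The groups did not overlap, and 11.1% of all probe sets also lay lower without overlap. In the comparison of the methyl ester with tryptophan-betaxanthin, phb-1 of the prohibitin ring (-0.61, adjusted p = 0.0606 from limma) and ucr-2.3 of complex III (-1.08, adjusted p = 0.0635) came close to the threshold.

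**Figure D5:**
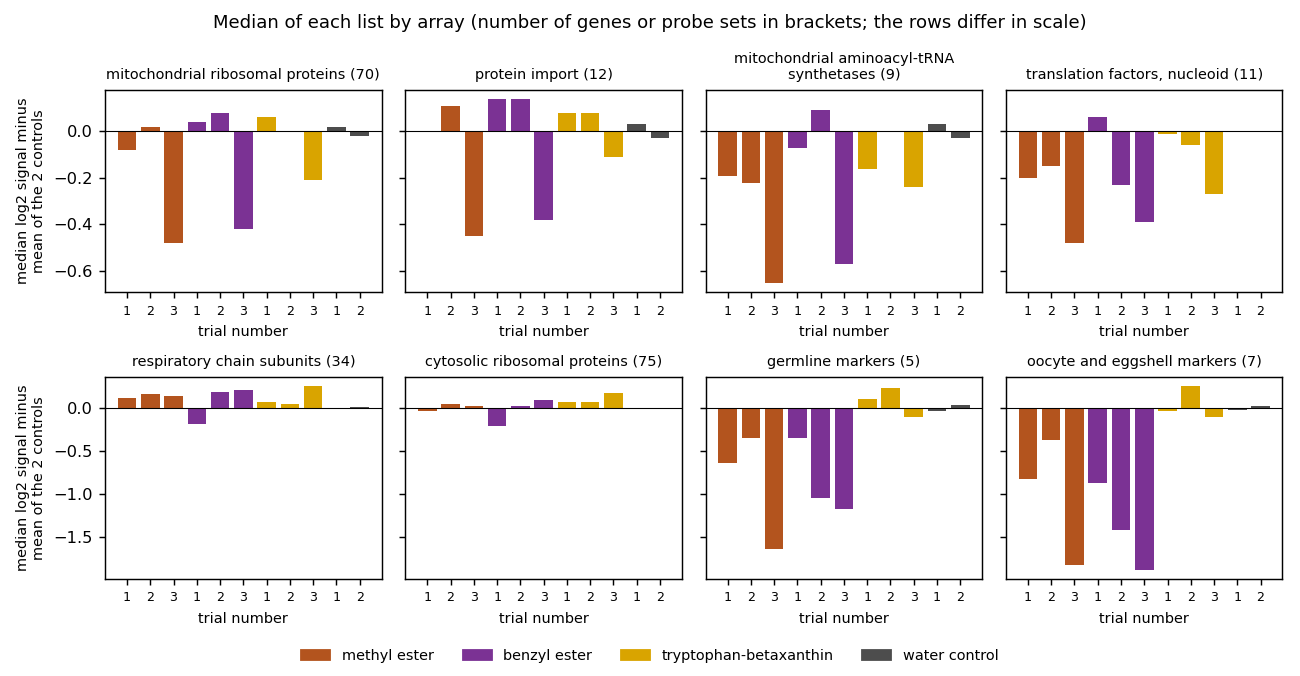
Median log2 signal of each gene list minus the mean of the 2 water controls, by array and trial, for the mitochondrial ribosomal proteins and 7 other lists (the rows differ in scale). The third trial of both esters is lowest for the mitochondrial ribosomal proteins (-0.48 and -0.42), import, synthetases and translation factors, and the germline and oocyte markers are below 0 in all ester arrays. None of these markers was called for either ester relative to water.

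Marker genes of several tissues were also called between the third trial and the first and second. Of 5 germline markers 4 were lower in the third trial, as were 5 of 7 oocyte and eggshell markers. So were 23 of 28 sperm genes and 6 of 6 yolk protein genes. Of all probe sets 10.2% were lower, and of the brighter ones 19.5%. Higher were 3 of 3 intestinal, 2 of 3 muscle, 2 of 3 hypodermal and 3 of 5 moulting markers (8.4% of all, 15.3% of the brighter ones). Of 3 neuronal markers 0 were called. The summed signal of the germline markers, on the log2 scale, ranged over 7.16 to 8.87 with the methyl ester, 7.49 to 8.81 with the benzyl ester, 9.06 to 9.46 with tryptophan-betaxanthin and 9.18 to 9.2 in water. That of the oocyte and eggshell markers ranged over 8.04 to 9.58 with the methyl ester, 8.04 to 9.08 with the benzyl ester, 9.90 to 10.19 with tryptophan-betaxanthin and 9.94 to 10.08 in water. No marker can be at 0 on this scale.

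The germline markers and the mitochondrial ribosomal proteins did not move alike in every array. In the first and second trials the median of the germline markers stood at -0.64 and -0.35 with the methyl ester and -0.35 and -1.05 with the benzyl ester relative to water, while that of the mitochondrial ribosomal proteins stood at -0.08 and 0.02 with the methyl ester and 0.04 and 0.08 with the benzyl ester. In the third trial the germline markers stood at -1.64, -1.17 and -0.10 and the mitochondrial ribosomal proteins at -0.48, -0.42 and -0.21 with the methyl ester, the benzyl ester and tryptophan-betaxanthin. Whether the amount of germ line has a part in the third-trial values was not tested. In RNA from whole animals, fewer cells of a type and less RNA per cell cannot be told apart.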

How the data were processed

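RNA of whole JK1466 animals was hybridised to C. elegans Gene 1.1 ST arrays, 3 per compound and 2 for water. The deposited table holds log2 signals per probe set, which the authors made by RMA (background correction, quantile normalisation and probe summary) in the Affymetrix Expression Console, per the submitters' processing notes. For the expression analysis the methods name the Transcriptome Analysis Console. For these programs the sources used here give no version and no annotation release. RMA brings every array to one distribution, so that a change of most genes would not be seen. The study's methods also mention water-treated animals of the third trial and wild-type animals, whose arrays were not analysed here.

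Of 29317 probe sets, the 26761 with a symbol were tested (26281 with 1 symbol, 480 with more), and the 2556 others were not used. Symbols came from the platform annotation given with the series, and chromosomes and gene order from RefSeq (WBcel235), matched by identifier or symbol. A model with 1 coefficient per group was fitted to all 11 arrays with limma 3.58.1 in R 4.3.3 (lmFit, eBayes, 7 residual degrees of freedom), with Benjamini-Hochberg adjustment over all tested probe sets and a threshold of 0.05. The fit was tested on simulated data. Arrays give no counts, so their number limits the precision, and p-values measure the spread between trials, which the labels call independent.

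The members and lists were chosen with earlier results of these data known. Values are printed for called members in the comparisons of groups, the 3 highest and 3 lowest differences from water of each compound, the highest and lowest between compounds, the 3 highest and 3 lowest mean signals, and mrps-5. Further members stand as examples of a place in the ribosome or of the third trial, and were chosen after their values were seen. Of the other lists, genes past the threshold or among the 2 with the smallest p over the 4 groups are named, though not all.

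The labels give each array a trial number. Deviations from the group means correlated within every trial for the methyl and benzyl ester (0.501, 0.235 and 0.742) and for the methyl ester and tryptophan-betaxanthin (0.214, 0.291 and 0.453). They did not in all trials for the benzyl ester and tryptophan-betaxanthin (0.272, -0.0609 and 0.472), nor for any compound and water (-0.0467 to 0.134). The alternatives tried were a block for the trial, only the arrays compared, a trended and robust prior, weights per array, cyclic loess, centring on the median, brighter probe sets, all probe sets, each array left out, and no arrays of the third trial. The term for the third trial was added after the data were seen.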

Additional observations from a re-analysis of the deposited data

Results flagged for a closer look

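The difference between the benzyl ester and tryptophan-betaxanthin was called for mrpl-45, which drew attention because a compound and its ester derivative then differ in a member by a direct test. The log2 difference was -0.69 (adjusted p = 0.0361 from limma), and 3 of 3 benzyl ester arrays lay below 3 of 3 tryptophan-betaxanthin arrays. Its signal is close to the median of all probe sets. Groups of 2 or 3 arrays are too small to single out an outlying array.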

How the results depend on the processing

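In most of the 22 alternatives the counts of called members and the medians moved by no more than the spread between arrays, with these exceptions. With the trial as a block, 6 members were lower for the methyl ester and 2 for the benzyl ester, each relative to tryptophan-betaxanthin (2961 and 3011 of all probe sets, against 366 and 828 without the block). The block gained no call of a member in the other comparisons. For the benzyl ester relative to tryptophan-betaxanthin the count was 0 with a trended and robust prior, 2 with array weights, 2 with cyclic loess and 3 without the third trial. Over all probe sets these settings called 295, 2491, 808 and 2930. With array weights 1 member was called for the methyl ester relative to water (mrpl-1, -0.43), 1 for the benzyl ester relative to water (mrpl-45, -0.56) and 1 for the methyl ester relative to tryptophan-betaxanthin. Over all probe sets array weights called 1235, 1537 and 1995 in these comparisons. Without the third trial 1 was called for the benzyl ester relative to water (mrps-31, -0.69), and 1455 over all probe sets. Leaving out single arrays gave 0 to 2 calls for the benzyl ester and 0 to 1 for the methyl ester relative to tryptophan-betaxanthin, and 9 to 45 for the third trial against the first and second. The ranges over all probe sets were 25 to 2087, 12 to 1625 and 1342 to 6143. The median between the methyl and benzyl ester then ranged over -0.25 to 0.05. For the third trial, tryptophan-betaxanthin and water alone gave 0 called members and a median of -0.17. Signs were followed for the members highest or lowest in a comparison, those called between groups, and mrps-5. Among these, signs turned only for mrps-5, between compounds. Third-trial values of the other members were not followed in this way. Between the methyl and benzyl ester mrps-5 stood at 0.00 with cyclic loess and at -0.12 to 0.08 without single arrays. Relative to tryptophan-betaxanthin it stood at -0.11 to 0.05 (benzyl ester) and at -0.13 to 0.04 (methyl ester) without single arrays. The cause was not tested.

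Counts over all probe sets moved more. For the methyl ester relative to water, 69 were called, against 319 with the block, 0 with only the arrays compared, 1235 with array weights and 616 without the third trial. For the benzyl ester these counts were 151, 343, 0, 1537 and 1455, and for tryptophan-betaxanthin 1, 9, 793, 177 and 136. Relative to tryptophan-betaxanthin, array weights gave 1995 (methyl ester) and 2491 (benzyl ester), the prior 171 and 295 and leaving out the third trial 882 and 2930, and the arrays compared alone gave 55 for the methyl ester. Between the esters 40 became 63 with the block, 1 with the arrays compared alone and 123 without the third trial. With 2 control arrays and none of the third trial, trial and treatment cannot be told apart in full relative to water.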
